A study of Mus musculus with 8 samples.

Results

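The claudins described here are 8 genes of the claudin family, Cldn1, Cldn2, Cldn3, Cldn4, Cldn7, Cldn8, Cldn15 and Cldn23, followed over 8 arrays of mouse colon and small intestine. They were taken by name, as every probe set that the array's annotation assigns to exactly 1 of them: 15 of 45101 probe sets, and 8 of the 18193 genes that have a probe set of their own. Expression was measured on Affymetrix arrays in C57BL/6 mice aged 110 days. The groups were tumours of ACKR2-/-ApcMin/+ mice, tumours of ApcMin/+ mice, tissue of ACKR2-/- mice and tissue of wild-type (WT) mice, each from colon and from small intestine. In ApcMin/+ mice 1 copy of Apc, a tumour suppressor of the gut, is mutated in every cell and intestinal tumours form spontaneously, and ACKR2-/- mice lack an atypical receptor, also called D6, that scavenges inflammatory chemokines. RNA of each genotype and tissue had been pooled, so every group is 1 array and none has a replicate. The tissue without tumours came from mice that do not carry ApcMin, so the effect of a tumour and that of the inherited allele cannot be told apart. The labels name the ileum for the small-intestinal tumours, while the small-intestinal tissue carries no such detail.

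Claudins are membrane proteins that join neighbouring epithelial cells at the tight junction and set which ions and molecules pass between the cells. Some members, among them claudins 1, 3, 4 and 8, are known mainly for sealing this route. Claudins 2 and 15 form pores for small cations, and claudin 2 also lets water through. Claudin 7 lies largely along the sides of gut epithelial cells and binds Epcam, and claudin 23 belongs to the surface of the gut lining. Their roles as seals or pores depend on which partners a cell makes, so the grouping is a guide.

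Values are array signals on the linear scale. A signal below 64.1, here called the floor, was set to 64.1 before log2 was taken, and 14023 genes above it on at least 2 arrays were tested. Each claudin is given by its brightest probe set unless stated. Differences are log2 values ± the standard error from 1 limma model over the 8 arrays, and a gene was called at an adjusted p under 0.05 over all genes tested. This model has 2 residual degrees of freedom. Its errors and p-values measure how far the effect of ACKR2 loss differs between colon and small intestine, not how much animals differ. How precise a value can be is limited by having only 8 arrays.

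The array medians ran between 85.5 and 133.1. The 3'-to-5' signal ratio of the Actb control probe sets, a measure of RNA quality, was 1.28 to 1.39 in the 4 arrays of ACKR2-deficient mice and 1.13 to 1.17 in the other 4. The same ratio for Gapdh overlapped between them, at 0.740 to 0.866 and 0.772 to 0.952. The pools also differed in sex-linked genes: the Y-linked gene Eif2s3y had signals of at most 2.92 in both WT arrays and at least 888 in the other 6. Xist, made from the inactive X chromosome, was 77.9 and 127 in the ACKR2-/-ApcMin/+ arrays and at least 2818 elsewhere. The part of RNA quality and of sex in the results was not tested, and Cldn2 lies on chromosome X. The WT small-intestine array stood apart by genes of the colon, singled out after their values were seen. Car1, a carbonic anhydrase of colon surface cells, was 18864 there, against 62.6 in ACKR2-/- small intestine, and close to the 19162 of WT colon. The water channel Aqp8 was 958 against 105, the transferase B3galt5 639 against 107, and the transporter Slc37a2 577 against 23.3 in the same 2 small-intestine arrays. The colon genes Atp12a and Scnn1g were at 24.2 and 3.96 in the WT small intestine, below the floor. Of its small-intestinal genes, Apoa1 and Mttp, at 43027 and 14067, were near the 39853 and 14097 of the ACKR2-/- small intestine. Others differed between these arrays in either direction: Rbp2 was 15190 against 3675, Mep1a 12232 against 20172 and Fabp6 27968 against 39468. For the regional differences in non-tumour tissue and the small-intestinal tumour effects, the size of each claudin that could be measured is also given without it. For other comparisons and the gene lists, sizes are given with it, apart from ranges with arrays left out in turn.

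In colon tumours 5 of the 8 claudins differed from non-tumour colon. For Cldn1, which is above the floor on few arrays and passed the filter on low values through non-tumour colon, a difference had to follow, so 4 of the other 7 is the count to read. Cldn4 and Cldn2 rose, while Cldn8, Cldn1 and Cldn3 fell. Of all genes tested, 23.6% were called in this comparison, 11% higher and 12.6% lower, so a call alone is common here and the sizes matter more. In small-intestinal tumours 2 of the 8 were called, Cldn4 higher and Cldn8 lower, against 3.97% of all genes, 2.77% higher and 1.2% lower. After median centring 252 genes were higher and 180 lower in small-intestinal tumours, against 389 and 168 without. Cldn4 and Cldn8 were thus the members called in both tumour types. Without the WT small-intestine array 0 genes of 13929 were called in any comparison, so only the sizes can be compared there.

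Cldn4 encodes a sealing claudin of many epithelia and, like claudin 3, serves as a receptor for an enterotoxin of Clostridium perfringens. Its signal was 7983 in ACKR2-/-ApcMin/+ and 5454 in ApcMin/+ colon tumours, against 1104 in ACKR2-/- and 1677 in WT colon. Every tumour pool was far above both colon pools, and the groups did not overlap. The log2 difference was 2.28 ± 0.16, a 4.85-fold higher signal in colon tumours (limma adjusted p = 0.00146). Its pairs were uneven, at 2.85 between the ACKR2-deficient and 1.70 between the ACKR2-intact pools, a gap that the error does not measure. Small-intestinal signals were 5771 in ACKR2-/-ApcMin/+ and 4838 in ApcMin/+ tumours, against 1771 in ACKR2-/- and 2066 in WT tissue. Again both tumours were above both tissues. The log2 difference was 1.47 ± 0.16, or 2.76-fold (limma adjusted p = 0.0108). Without the WT small-intestine array it was 1.28 (limma adjusted p = 0.542).

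Cldn2, the cation and water pore typical of crypts and leaky epithelia, rose in colon tumours. Its signal was 6659.8 in ACKR2-/-ApcMin/+ and 7126 in ApcMin/+ colon tumours, against 2587 in ACKR2-/- and 2919.8 in WT colon. Both tumours exceeded both colon pools, with a log2 difference of 1.33 ± 0.21, or 2.51-fold (limma adjusted p = 0.00991). Its other probe set, with 1408 and 1884 in the same tumours against 594 and 662 in colon, gave 1.38 ± 0.25 when probe sets were fitted one by one (limma adjusted p = 0.0141). The paired differences of both probe sets were close to each other in colon. For the small intestine the Cldn2 signal was 4948 in ACKR2-/-ApcMin/+ and 5682 in ApcMin/+ tumours, against 4909 in ACKR2-/- and 3155 in WT tissue. The ACKR2-deficient tumour and tissue were nearly level, and only the ApcMin/+ tumour stood clearly above its WT counterpart. The log2 difference of 0.43 ± 0.21 did not pass (limma adjusted p = 0.325), and it was 0.024 without the WT small-intestine array.

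Cldn8, a sealing claudin of the distal gut that limits sodium leakage, fell in both tumour types. Its signal was 1746 in ACKR2-/-ApcMin/+ and 1248 in ApcMin/+ colon tumours, against 4152 in both ACKR2-/- and WT colon. The log2 difference was -1.49 ± 0.20, a 2.81-fold lower signal in tumours (limma adjusted p = 0.00606). Small-intestinal signals were 82.4 in ACKR2-/-ApcMin/+ and 71.7 in ApcMin/+ tumours, against 329 in ACKR2-/- and 289 in WT tissue. Both tumours were just above the floor and below both tissues, with a log2 difference of -2.00 ± 0.20, or 4.01-fold lower (limma adjusted p = 0.00749). With a floor at the 60th percentile of signals, which lies above the values of both tumours, this difference shrank to -0.69 and was not called (limma adjusted p = 0.168). Without the WT small-intestine array it was -2.10 (limma adjusted p = 0.542).

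Cldn1, a sealing claudin best known for the barrier of the skin, was dim. Its signal was 24.4 in ACKR2-/-ApcMin/+ and 75.3 in ApcMin/+ colon tumours, against 357 in ACKR2-/- and 126 in WT colon. Its log2 difference in colon tumours was -1.61 ± 0.36 (limma adjusted p = 0.0256). Only 3 arrays exceeded the floor, both non-tumour colon arrays among them, so the filter kept Cldn1 through the group where it is high and the call is given as a description. One tumour was below the floor, so this size is a lower limit. With the mean over its 4 probe sets the difference was -0.43 and was not called (limma adjusted p = 0.0947). Of the other Cldn1 probe sets, 2 were below the floor on all 8 arrays and the third was above it on 3, between 30.7 and 79.5 overall. In the small intestine Cldn1 was below the floor on all 4 arrays, from 34.8 to 41.6 in tumours and from 43.3 to 59.0 in tissue, so no difference was measured.

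Cldn3, an abundant sealing claudin of the gut lining, fell slightly in colon tumours. Its signal was 6757 in ACKR2-/-ApcMin/+ and 7034 in ApcMin/+ colon tumours, against 10765 in ACKR2-/- and 10524 in WT colon. The 2 groups did not overlap, and the log2 difference was -0.63 ± 0.18 (limma adjusted p = 0.0492), which lies at the threshold. It was called in 5 of 12 other settings, and the limma adjusted p-values over all 12 ran from 0.035 to 0.163. Fitted probe set by probe set, the other 3 gave -0.94 ± 0.20, -0.71 ± 0.17 and -0.67 ± 0.17 (limma adjusted p = 0.0252, 0.033 and 0.0403), and the brightest gave 0.0531. All 4 probe sets were lower in both colon pairs. In the small intestine the Cldn3 signal was 7882 in ACKR2-/-ApcMin/+ and 7716 in ApcMin/+ tumours, against 8030.0 in ACKR2-/- and 10947 in WT tissue. The log2 difference was -0.27 ± 0.18 (limma adjusted p = 0.461), with the WT pool well above the other 3, and was -0.026 without that pool.

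**Figure D1:**
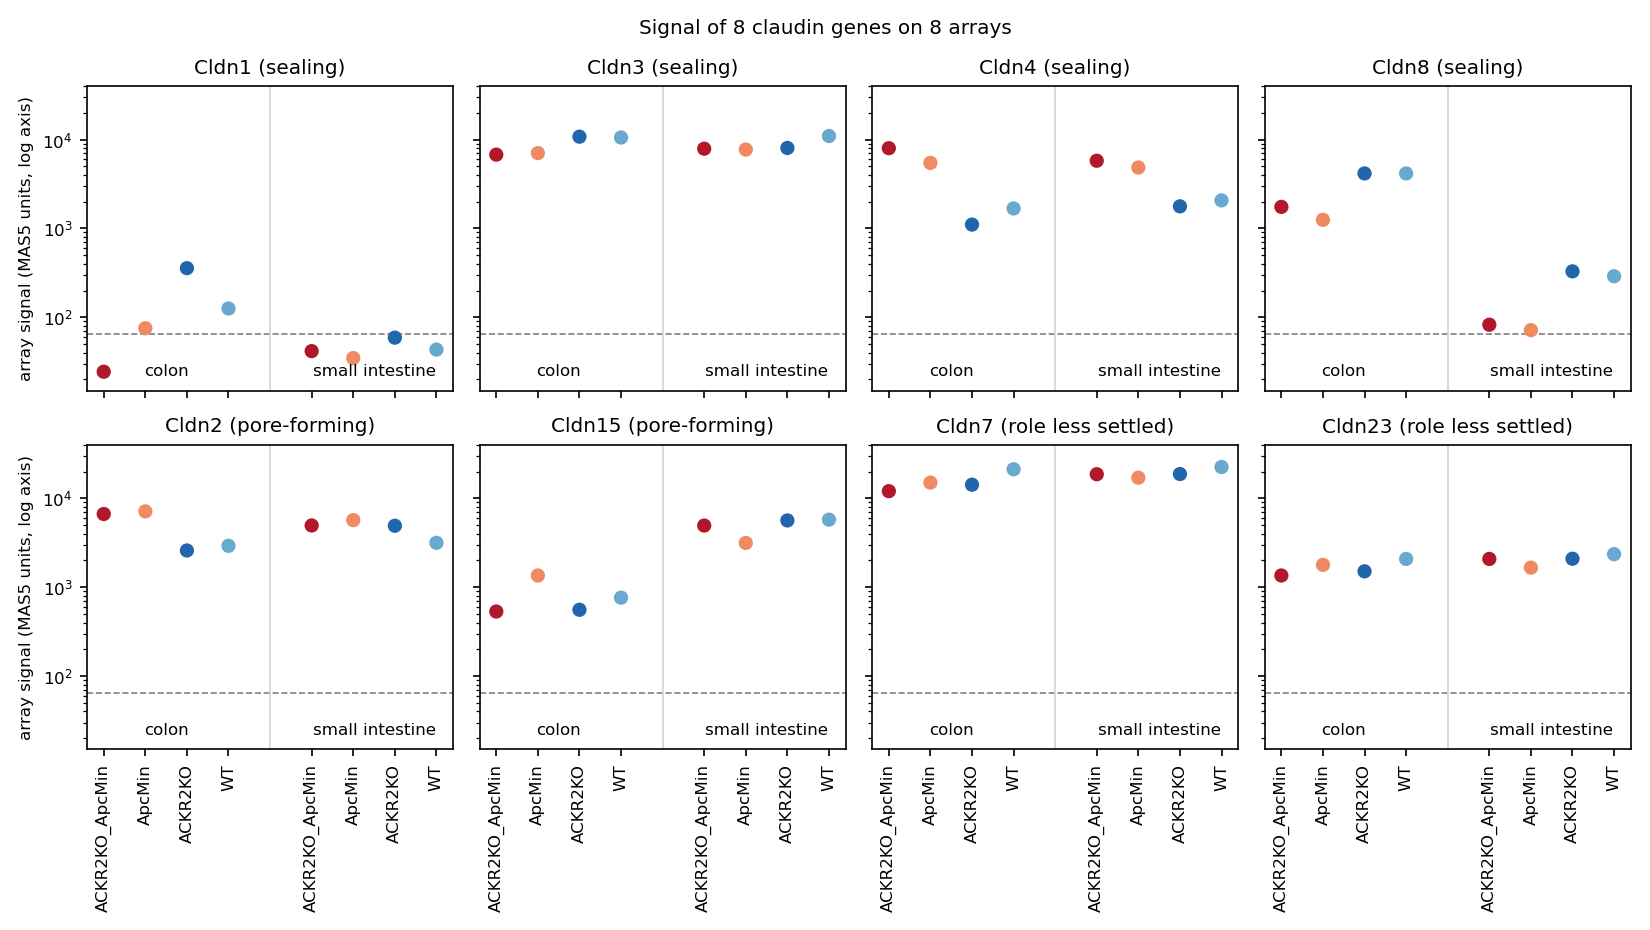
Array signal of each claudin (y axis, MAS5 units, log scale) on the 8 arrays (x axis), with colon left and small intestine right in each panel. ACKR2KO_ApcMin stands for ACKR2-/-ApcMin/+, ApcMin for ApcMin/+ and ACKR2KO for ACKR2-/-; each point is 1 array and the dashed line is the floor of 64.1. Cldn4 is higher in all 4 tumour arrays than in the 4 others, and Cldn8 is at 329 or less in the small intestine.

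Cldn15, the pore through which sodium returns to the gut lumen for nutrient uptake in the mouse small intestine, was not called in either tumour type. Its signal was 533 in ACKR2-/-ApcMin/+ and 1354 in ApcMin/+ colon tumours, against 557 in ACKR2-/- and 762 in WT colon. The 2 colon tumours lay on both sides of the colon pools, and the log2 difference was 0.38 ± 0.43 (limma adjusted p = 0.575). In the small intestine it was 4939 in ACKR2-/-ApcMin/+ and 3146 in ApcMin/+ tumours, against 5637 in ACKR2-/- and 5750 in WT tissue. Both tumours were lower, by -0.53 ± 0.43 on the log2 scale, which did not pass (limma adjusted p = 0.555), and by -0.74 without the WT array. Among the 8 claudins Cldn15 had the largest error in the model, and its ACKR2-deficient tumour was lower than the ApcMin/+ tumour in colon and higher in small intestine.

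Cldn7 and Cldn23 were not called in tumours. Cldn7 had signals of 12031 in ACKR2-/-ApcMin/+ and 15023 in ApcMin/+ colon tumours, against 14224.5 in ACKR2-/- and 21225 in WT colon. The groups overlapped, and the log2 difference was -0.37 ± 0.20 (limma adjusted p = 0.24). Small-intestinal Cldn7 was 18659 and 17067 in ACKR2-/-ApcMin/+ and ApcMin/+ tumours, against 18758 in ACKR2-/- and 22515 in WT tissue. The WT pools had the highest Cldn7 signal of their tissue. Cldn23 was 1354 in ACKR2-/-ApcMin/+ and 1784 in ApcMin/+ colon tumours, against 1508 in ACKR2-/- and 2079 in WT colon, a log2 difference of -0.19 ± 0.21. Small-intestinal Cldn23 was 2079 in ACKR2-/-ApcMin/+ and 1660.1 in ApcMin/+ tumours, against 2090.0 in ACKR2-/- and 2353 in WT tissue, a log2 difference of -0.26 ± 0.21. Cldn23 too was highest in the WT pool of each tissue. Without the WT small-intestine array the small-intestinal log2 differences were -0.36 for Cldn7, from -0.20 with it, and -0.40 for Cldn23.

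Set side by side, the sealing members did not move as 1 group in colon tumours. Of 4 sealing claudins 1 rose and 3 fell, and their median log2 difference was -1.06. Leaving out Cldn1 for its filter, 1 rose and 2 fell, with Cldn3 in the middle at -0.63. Of the 2 pore-forming claudins 1 rose and 0 fell, with a median of 0.85. The 2 members of less settled role had a median of -0.28, and the median over all genes tested was 0. In small-intestinal tumours 1 sealing claudin rose and 1 fell, with a median of -0.13. The 2 pore-forming claudins had a median of -0.05 there with 0 called, and the median over all genes was 0.04. The 2 pore-forming claudins were above 0 in colon tumours and lay on both sides of 0 in small-intestinal tumours, and 2 genes are too few to call this particular to pores.

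**Figure D2:**
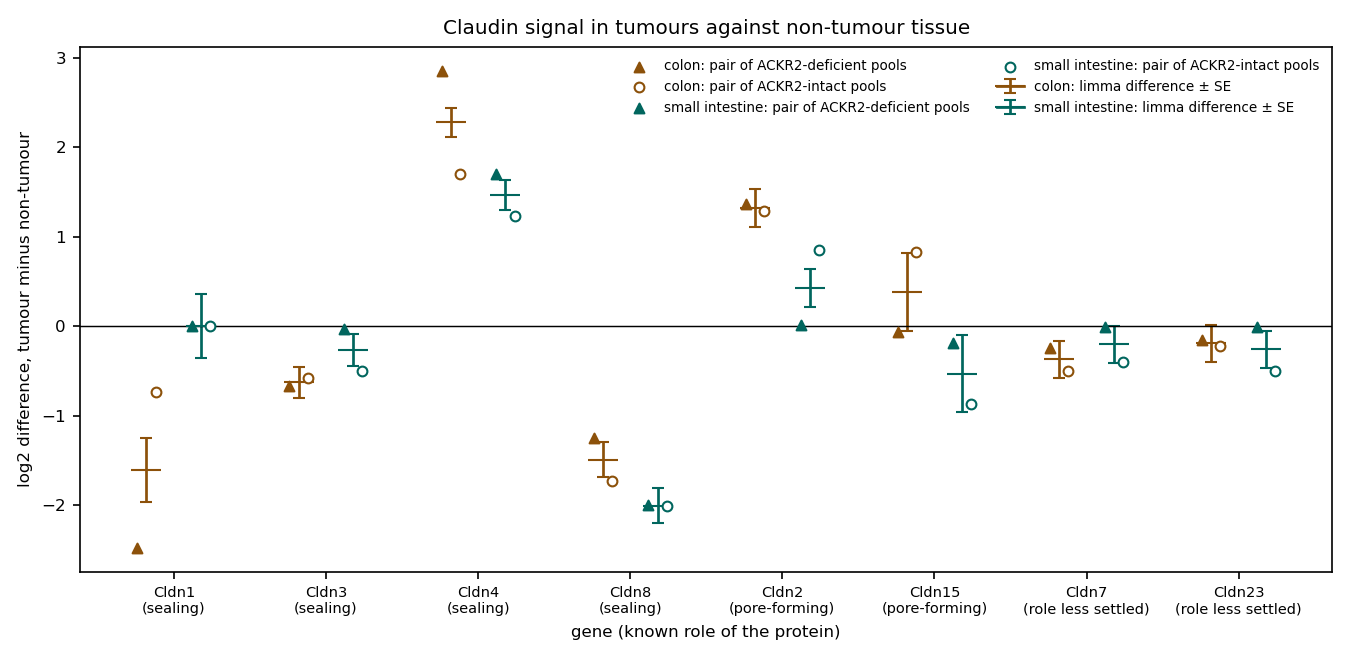
Log2 difference of each claudin, tumour minus non-tumour tissue (y axis), ordered by known role (x axis), for colon in brown and small intestine in green. Triangles are the pairs of ACKR2-deficient pools, open circles the pairs of ACKR2-intact pools, and bars the limma difference ± SE. Cldn4 lies above 0 and Cldn8 below 0 in all 4 pairs.

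The difference between the colon and the small-intestinal tumour effects was tested in the same model. It called 0 of 8 claudins, against 2.25% of all genes. An unadjusted limma p under 0.05 was found for 3 of 8, beside 2663 of 14023 genes. The 3 include Cldn1, which the filter kept through non-tumour colon. The tumour effect on Cldn4 was larger in colon by 0.81 ± 0.23 on the log2 scale (limma adjusted p = 0.141). That on Cldn2 was larger by 0.90 ± 0.30 (limma adjusted p = 0.188). That on Cldn1 was lower by -1.61 ± 0.50, with all small-intestinal values at the floor (limma adjusted p = 0.17). A colon-specific response of any claudin is therefore not shown by these arrays.

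Cldn4 and Cldn2 are the claudins that rose in colon tumours, and Cldn3, a close neighbour of Cldn4 on chromosome 5, was lower. The 250 bases before their starts are printed for that reason, 5' to 3', from RefSeq on mouse build GRCm38.p6. The Cldn4 stretch is chr5:134946935-134947184 on the minus strand, the Cldn3 stretch chr5:134985964-134986213 on the plus strand, and the Cldn2 stretch chrX:139800558-139800807 on the plus strand. Capitals mark matches to the motifs searched.
Cldn4: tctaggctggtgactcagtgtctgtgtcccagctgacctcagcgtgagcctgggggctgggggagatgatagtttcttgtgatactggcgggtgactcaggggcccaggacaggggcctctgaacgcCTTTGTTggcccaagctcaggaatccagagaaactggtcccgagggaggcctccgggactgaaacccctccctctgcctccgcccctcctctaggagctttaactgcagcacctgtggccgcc
Cldn3: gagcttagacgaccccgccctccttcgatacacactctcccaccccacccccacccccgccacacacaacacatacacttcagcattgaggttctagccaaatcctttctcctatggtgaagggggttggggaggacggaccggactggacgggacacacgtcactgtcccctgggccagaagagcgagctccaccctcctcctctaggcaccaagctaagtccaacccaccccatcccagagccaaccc
Cldn2: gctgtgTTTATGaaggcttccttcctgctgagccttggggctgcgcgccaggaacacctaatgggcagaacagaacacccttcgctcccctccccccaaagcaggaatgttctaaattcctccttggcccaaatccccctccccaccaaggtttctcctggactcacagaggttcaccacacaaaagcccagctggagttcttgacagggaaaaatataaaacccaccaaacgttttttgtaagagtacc
Windows were given for 6 of the 8 claudins, with 2 for Cldn7, and none was given for Cldn8 and Cldn23. On both strands 5 words were searched: CTTTGTT and CTTTGAA for the TCF/LEF factors that act with Apc's target beta-catenin, TTTATG for the gut factors CDX1 and CDX2, and CAAAGTCCA and CAAAGTTCA for HNF4A. The Cldn4 window held 1 CTTTGTT, a word found in 5.03% of all 32851 windows of the same length. The Cldn2 window held 1 TTTATG, found in 10.8% of windows. The windows of Cldn1, Cldn3, Cldn7 and Cldn15 held none of the 5. CTTTGAA was in 4.46% of all windows, CAAAGTCCA in 0.384% and CAAAGTTCA in 0.335%. A match is a word in a sequence and no evidence of binding.

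Cell type markers were measured beside the claudins. In bulk tissue, fewer cells of a type and less RNA per cell cannot be told apart. The summed signal of 12 pan-epithelial genes was 115805 to 120183 in colon tumours and 123000 to 128556 in colon, and 113892 to 138456 in small-intestinal tumours and 120575 to 127715 in small intestine. Epcam, the epithelial adhesion protein that stabilises claudin 7, differed by -0.13 ± 0.19 in colon tumours and by -0.09 ± 0.19 in small-intestinal tumours on the log2 scale (limma adjusted p = 0.67 and 0.845). With each array centred on the epithelial genes, Cldn4 was 2.32 and Cldn2 1.37 higher on the log2 scale in colon tumours. Without this centring they were 2.28 and 1.33 higher, and the part of epithelial content was not tested. With the centring Cldn8 was at -1.45 and Cldn1 at -1.63, both still called, while Cldn3 at -0.58 was not (limma adjusted p = 0.0539). Of the epithelial list 1 of 12 rose and 1 fell in colon tumours, near the 11% and 12.6% of all genes. The epithelial genes called were Krt18, a keratin, at 0.82 ± 0.16, and Spint1, a protease inhibitor, at -0.85 ± 0.16.

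Smooth muscle genes moved strongly with tumour status. In colon tumours 10 of 10 fell, with a median log2 difference of -3.58, and in small-intestinal tumours 7 of 10 fell, with a median of -2.21. Their summed signal was 9834 to 36200 in colon tumours and 116329 to 137523 in colon, and 12569 to 27172 in small-intestinal tumours and 65271 to 69977 in small intestine. Colonocyte markers, the genes of mature colon surface cells, fell in 7 of 14 cases and rose in 1 in colon tumours, with a median of -1.89. Their summed signal was 57409 to 70669 in colon tumours and 151196 to 161932 in colon. Of 18 Wnt pathway targets and stem cell markers, 17 rose in colon tumours and 10 in small-intestinal tumours, with medians of 2.48 and 1.52. Of the other cell types in colon tumours, 6 of 8 neuron and glia genes, 3 of 9 fibroblast genes and 2 of 3 adipocyte genes fell, against 12.6% of all genes. For leukocyte genes it was 1 of 10, near that share, and 0 of 10 endothelial genes were called. In small-intestinal tumours 4 of 10 leukocyte genes rose, led by the B cell gene Ms4a1 at 4.61 ± 0.35, and 2 of 9 fibroblast genes fell. The part of muscle, other cell types, cell maturity and Wnt activity in the claudin differences was not tested.

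**Figure D3:**
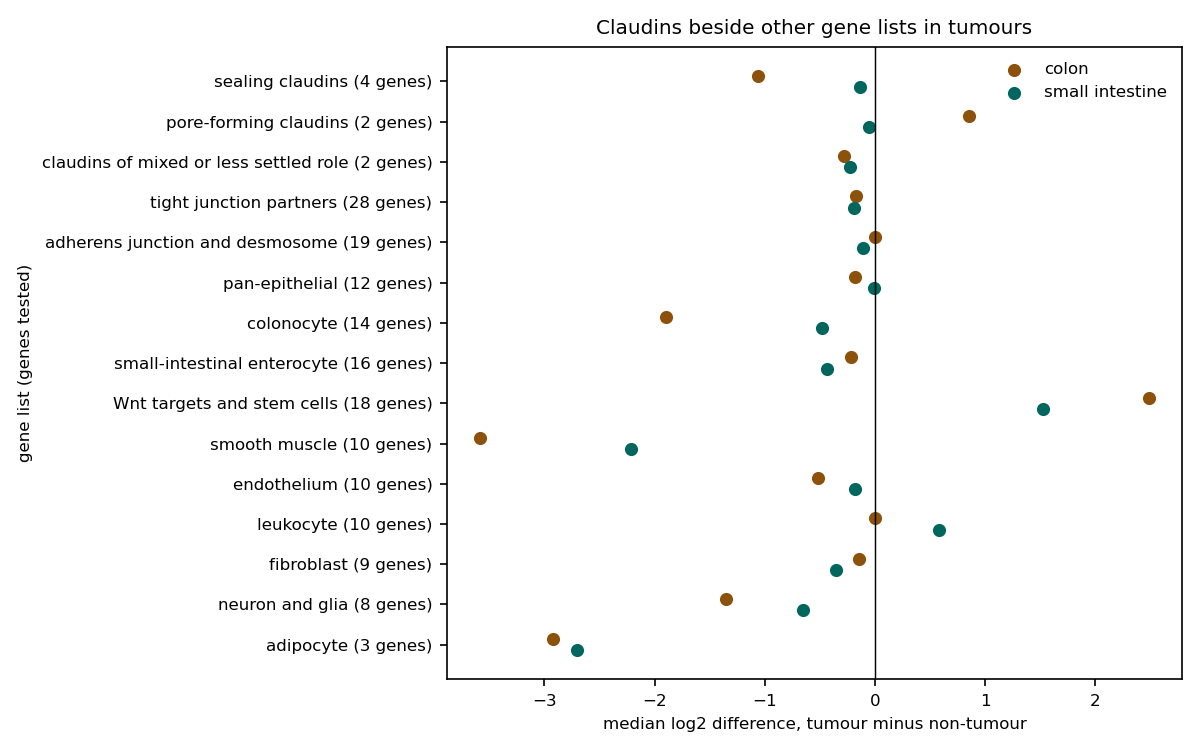
Median log2 difference, tumour minus non-tumour tissue (x axis), of the claudin groups and of other gene lists (y axis, with genes tested), in colon (brown) and small intestine (green). In colon tumours the median is -1.06 for the sealing claudins and 0.85 for the pore-forming ones, between smooth muscle at -3.58 and Wnt targets at 2.48. The 4 sealing claudins run from -1.61 for Cldn1 to 2.28 for Cldn4, and the pore-forming median rests on 2 genes. Cldn1 passed the filter through non-tumour colon, and without it the middle sealing value is -0.63, that of Cldn3.

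Partners of the claudins at the junction were also measured. Of 28 tight junction partners tested, 0 rose and 7 fell in colon tumours, against 11% and 12.6% of all genes. Their median log2 difference was -0.17, and the part of muscle and other cell types in it was not tested. The largest falls were those of Mylk, a myosin light chain kinase that is also a smooth muscle gene, at -2.61 ± 0.24, the scaffold Mpdz at -2.20 ± 0.26 and the junctional adhesion molecule Jam3 at -1.66 ± 0.25. In small-intestinal tumours 0 rose and 2 fell, against 2.77% and 1.2% of all genes. The 2 were Mylk at -1.57 ± 0.24 and Jam2 at -1.29 ± 0.25. Chosen after its values were seen, Ocln, the tight junction protein occludin, was 2118 and 2099 in ACKR2-/-ApcMin/+ and ApcMin/+ colon tumours, against 3830 in ACKR2-/- and 2552 in WT colon. It fell by 0.57 on the log2 scale (SE 0.14, limma adjusted p = 0.0318). Tjp1, the scaffold ZO-1, chosen in the same way, differed by -0.0092 ± 0.14 there. Of 19 adherens junction and desmosome genes, 3 rose and 1 fell in colon tumours, against 11% and 12.6% of all genes. In small-intestinal tumours 0 of them were called, against 3.97% of all genes. Nectin4, an adhesion receptor, was 1.97 ± 0.35 and the desmosomal cadherin Dsc2 0.90 ± 0.15 higher on the log2 scale in colon tumours, and the desmosomal linker Evpl was lower by -0.86 ± 0.20.

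In tissue without tumours the claudins split by region. Cldn8 and Cldn1 were higher in colon than in small intestine, and Cldn15 was lower. These 3 of 8, of which Cldn1 passed the filter through colon alone, stand against 21.4% of all genes called in this comparison, 13% higher and 8.4% lower in colon. After median centring 1190 genes were higher and 1470 lower in colon, against 1821 and 1178 without. Cldn8 had the largest difference among the 8: 4152 in both colon pools, against 329 in ACKR2-/- and 289 in WT small intestine. This was a log2 difference of 3.75 ± 0.20, or 13.5-fold (limma adjusted p = 0.000205). Without the WT small-intestine array the Cldn8 difference was 3.66 (limma adjusted p = 0.166). Cldn1 was 357 and 126 in ACKR2-/- and WT colon and below the floor in both small-intestinal pools. Its fitted log2 difference was 1.72 ± 0.36 (limma adjusted p = 0.0217), a lower limit of at least 3.3-fold over both pairs. The pairs were uneven, at least 5.57-fold between the ACKR2-/- and at least 1.96-fold between the WT pools. Without either of the 2 ACKR2-/- arrays it was 0.97, and without either of the 2 WT arrays 2.48, on the log2 scale. It was called in 7 of 10 other settings and did not pass the filter with the 60th percentile floor, and the mean over its probe sets gave 0.46 (limma adjusted p = 0.0853). The second probe set above the floor on 3 arrays gave 0.11 ± 0.16.

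Cldn15 ran the other way. Its signal was 557 in ACKR2-/- and 762 in WT colon, against 5637 in ACKR2-/- and 5750 in WT small intestine. It was 8.74-fold lower in colon, -3.13 ± 0.43 on the log2 scale (limma adjusted p = 0.00578), and -3.34 without the WT small-intestine array (limma adjusted p = 0.236). The sodium pore of the small intestine and the sodium barrier of the colon thus had opposite regional patterns.

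The other 5 claudins were not called between the regions. Cldn4 differed by -0.49 ± 0.16 (limma adjusted p = 0.0837), with both colon pools below both small-intestinal pools. It was called only when arrays were centred on their medians, at -0.67 (limma adjusted p = 0.036). Cldn2 differed by -0.52 ± 0.21 (limma adjusted p = 0.139), while its other probe set gave 0.14 ± 0.25, so the 2 probe sets disagree in sign. Cldn3, Cldn7 and Cldn23 differed by 0.18 ± 0.18, -0.24 ± 0.20 and -0.32 ± 0.21. Without the WT small-intestine array the differences were -0.92 for Cldn2, 0.42 for Cldn3, -0.68 for Cldn4, -0.40 for Cldn7 and -0.47 for Cldn23. Among 7 other claudins tested of 12 with a probe set, Cldn14 was 1.02 ± 0.19 and Cldn12 0.52 ± 0.13 higher in colon on the log2 scale (limma adjusted p = 0.0154 and 0.0403). Of 16 small-intestinal enterocyte genes 15 were lower in colon, and of 14 colonocyte genes 7 were higher, with Car1 high in the WT small intestine as described. Of other cell types, 8 of 9 fibroblast, 4 of 10 smooth muscle and 3 of 8 neuron and glia genes were higher in colon, against 13% of all genes. For endothelial genes it was 1 of 10, near that share. Of 10 leukocyte genes 4 were lower, against 8.4% of all genes. The part of these cell types in the regional differences was not tested.

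The regional pattern of Cldn8 and Cldn15 was also found between the tumours. Of the 8 claudins 2 were called between colon and small-intestinal tumours, against 13.1% of all genes, 5.76% higher and 7.36% lower. Cldn8 was 4.26 ± 0.20 higher on the log2 scale, or 19.2-fold, in colon tumours (limma adjusted p = 0.000349), with both small-intestinal tumours close to the floor. The 60th percentile floor gave 2.94 (limma adjusted p = 0.00181), and without a filter on low genes Cldn8 was not called (limma adjusted p = 0.0514). Cldn15 was lower by -2.21 ± 0.43, or 4.64-fold (limma adjusted p = 0.0247). Its pairs were uneven, at -3.21 between the ACKR2-/-ApcMin/+ tumours and -1.22 between the ApcMin/+ tumours. The other 6 were not called, among them Cldn1, whose signal exceeded the floor in 1 of 4 tumour arrays. Between these tumours 7 of 9 fibroblast genes were higher in colon and 7 of 10 leukocyte genes lower. Of 10 smooth muscle genes 1 was lower, near the 7.36% of all genes. The part of these cell types was not tested.

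**Figure D4:**
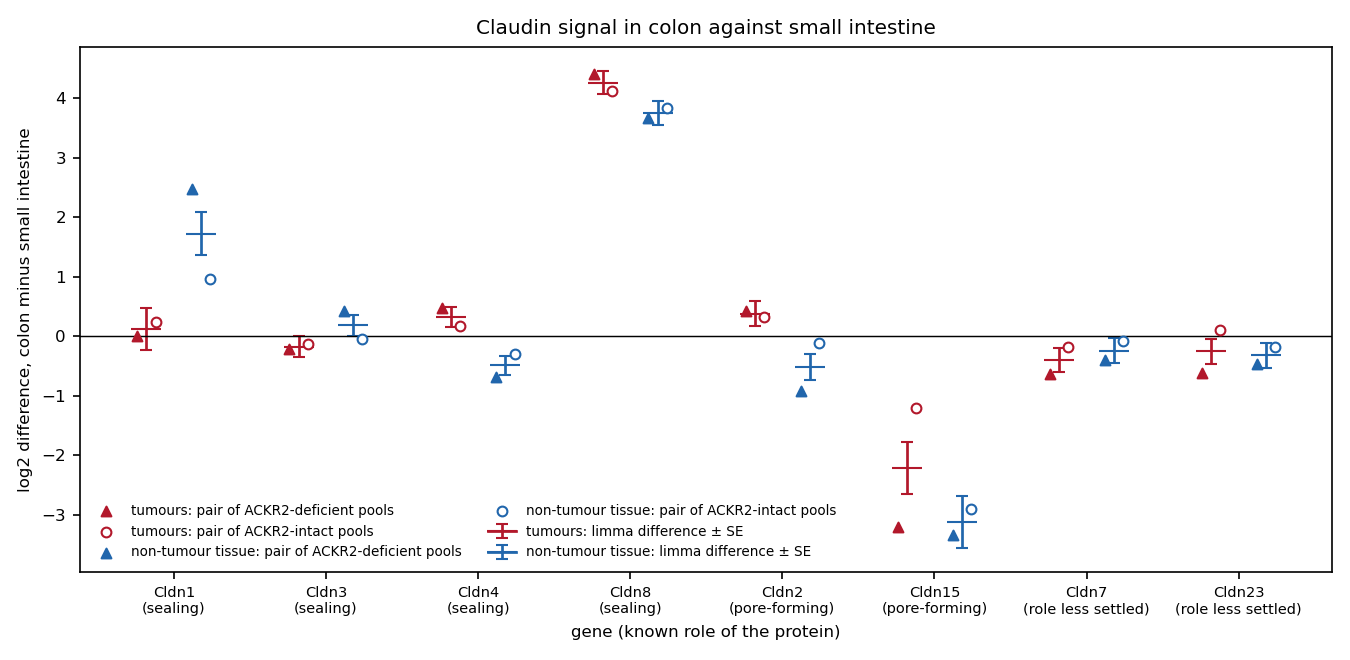
Log2 difference of each claudin, colon minus small intestine (y axis), ordered by known role (x axis), between tumours in red and between non-tumour tissues in blue. Triangles are pairs of ACKR2-deficient pools, open circles pairs of ACKR2-intact pools, and bars the limma difference ± SE. Cldn8 lies near 4 in all pairs and Cldn15 below -1 in all pairs.

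Over all 4 kinds of tissue, Cldn8 was highest in non-tumour colon, then in colon tumours, small intestine and small-intestinal tumours, with no overlap between neighbours. Cldn4 was highest in colon tumours and small-intestinal tumours, whose values overlapped, followed by small intestine and colon, which did not overlap. Cldn2 was highest in colon tumours, then in small-intestinal tumours, small intestine and colon. The neighbouring groups did not overlap for Cldn2, but small-intestinal tumours and tissue were separated by 4948 against 4909 alone. On its other probe set colon and small intestine overlapped, at 594 and 662 in colon against 743 and 437 in small intestine. Cldn15 was highest in small intestine, then in small-intestinal tumours, with colon tumours and colon overlapping at the low end.

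ACKR2 loss went with no called claudin. Centring arrays on their medians put the median of all genes at 0.18 in tumours and 0.29 in non-tumour tissue for this effect, against -0.03 and -0.02 without, so the direction of small differences depends on the scaling. In tumours 0 of 8 were called, against 0.0357% of all genes. With 2188 of 14023 genes at an unadjusted limma p under 0.05, 1 of the 8 was too. This was Cldn4, higher by 0.40 ± 0.16 on the log2 scale in ACKR2-/-ApcMin/+ than in ApcMin/+ tumours (limma adjusted p = 0.316). In non-tumour tissue 0 of 8 were called, against 0.685% of all genes. Median centring called 2115 genes higher and 225 lower of 14035 for this effect, against 18 and 78 without, and 0 claudins either way. Without centring Cldn4 alone of the 8 had an unadjusted limma p under 0.05, beside 3478 of 14023 genes. With it 3 of the 8 did, beside 4903 of 14035 genes, so these counts single out no claudin. Cldn4 was lower by -0.41 ± 0.16 in ACKR2-/- than in WT tissue (limma adjusted p = 0.189). For Cldn1 the ACKR2-/- colon had 357 and the WT colon 126, with no measured counterpart in the small intestine. For Cldn15 the ACKR2-/-ApcMin/+ tumour was below the ApcMin/+ tumour in colon, at 533 against 1354, and above it in the small intestine, at 4939 against 3146.

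Several claudins followed each other over the 8 arrays, which share tissue and tumour status, so these values only describe the arrays. Pearson's r of log2 signals was -0.98 between Cldn2 and Cldn3, 0.87 between Cldn2 and Cldn4, 0.95 between Cldn7 and Cldn23 and -0.86 between Cldn8 and Cldn15. The genes with the most similar pattern to Cldn4 were Fgfrl1, Avil and Ttf2, at r of 0.98 to 0.99. For Cldn2 they were Fdps, Cep55 and Stil, at 0.97 to 0.99. For Cldn8 they were Cachd1, Stxbp6 and Smim10l1, at 0.98 to 0.99, and for Cldn15 B4galnt2, Gpat3 and Slc2a9, each at 0.99. For Cldn1 they were Hapln1, Jph1 and Dse, at 0.99, with most values of Cldn1 at the floor. Cldn3, Cldn7 and Cldn23 varied little over the arrays, with standard deviations of 0.28, 0.30 and 0.27 on the log2 scale. Slc25a36, Nbl1 and Acta1 were most like Cldn3 at r of 0.96 to 0.97. Tmbim6 and Ceacam20 were among the 3 genes most like both Cldn7 and Cldn23, with Myh14 for Cldn7 and Chp2 for Cldn23, at 0.93 to 0.98.

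**Figure D5:**
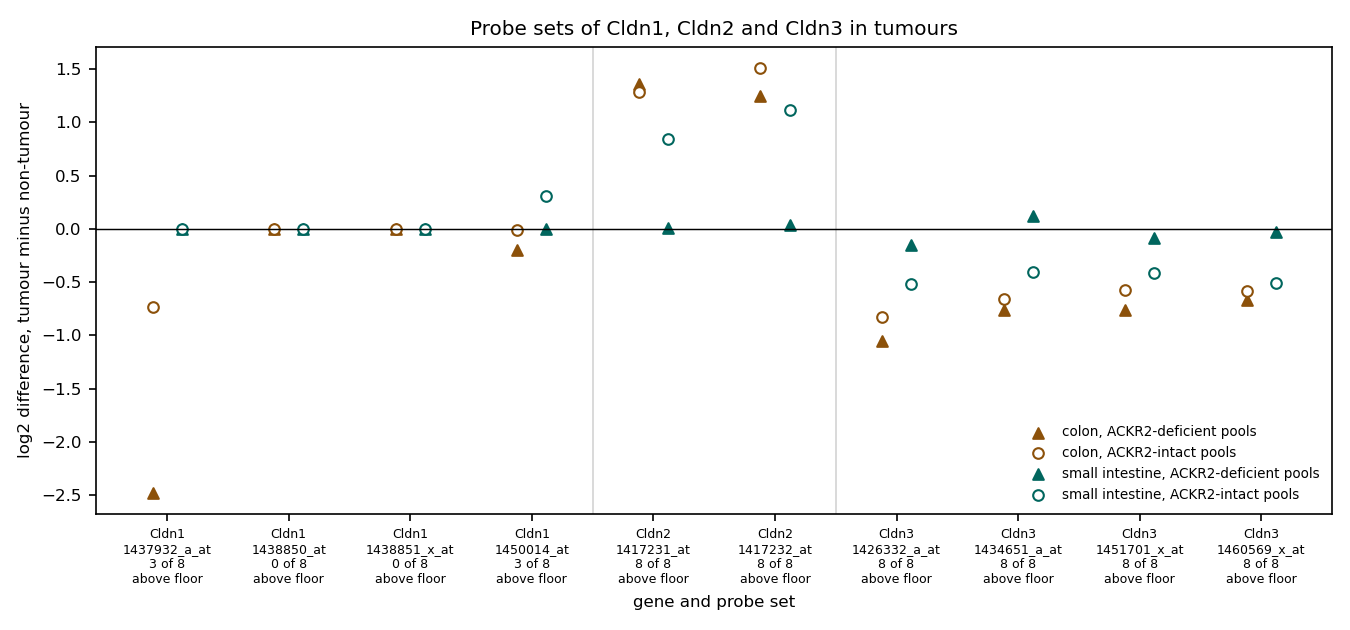
Log2 difference, tumour minus non-tumour tissue (y axis), for each probe set of the 3 claudins that have several (x axis, with the number of arrays above the floor), in colon (brown) and small intestine (green). Triangles are pairs of ACKR2-deficient pools and open circles pairs of ACKR2-intact pools; values at the floor give 0. All 4 Cldn3 probe sets are below 0 in both colon pairs and both Cldn2 probe sets are above 1 in them, while the Cldn1 probe sets disagree.

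Leaving out 1 of the 8 arrays leaves 1 residual degree of freedom and a single array in 1 of the 4 kinds of tissue. Such fits called fewer of all genes tested in every comparison, not only fewer claudins, so only sizes and directions are compared. The directions of all 12 called differences were kept in each of these fits. Those of Cldn1 are no support, because the filter kept it through non-tumour colon, where it is high.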

How the data were processed

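Expression was measured on 8 Affymetrix arrays, 1 pooled RNA sample per group, with RNA extracted by Trizol and RNeasy columns per the labels' protocols. The deposited values are intensities on the linear scale, which the authors computed with MAS5 and handled with Partek, per the submitters' processing notes (versions not given). Each array's mean without 2% of values at either end was 500.0. Columns left unused numbered 0.

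Of 45101 probe sets, the annotation gives 34945 a single gene, 932 more than 1 gene and 9160 no gene. From these, 64 controls and all probe sets without exactly 1 gene were left out. The floor of 64.1 (log2 6.00) is the median over arrays of the 40th percentile. Each gene was represented by the probe set with the highest mean, and genes above the floor on at least 2 arrays were tested, two-sided, with limma 3.58.1 in R 4.3.3. The model had 4 intercepts (tissue by tumour status), an ACKR2 term for tumours and another for non-tumour tissue, each common to colon and small intestine, a trend in the empirical Bayes step, 4.16 prior degrees of freedom and Benjamini-Hochberg adjustment. It was tested on simulated data.

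The members, the 17 gene lists and the tests were chosen with earlier results of these data known. Genes named are all members, Epcam, up to 3 called genes with the largest differences per list and comparison, and the 3 genes most like each member among those with a standard deviation of at least 0.5. Ocln, Tjp1, Cldn6, Cldn18 and tissue markers that set 1 array apart are named in addition. Alternatives were other floors, filters, scalings, probe set rules and models, and leaving out arrays. Sequences are from RefSeq.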

Additional observations from a re-analysis of the deposited data

Results flagged for a closer look

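Cldn2 was higher in colon than in small intestine in both tumour pairs, at 0.43 (ACKR2-/-ApcMin/+) and 0.33 (ApcMin/+) on the log2 scale, and lower in both non-tumour pairs, at -0.92 (ACKR2-/-) and -0.11 (WT). The difference between the tumour and non-tumour contrasts was 0.90 ± 0.30 and did not pass (limma adjusted p = 0.188). The second Cldn2 probe set gave 0.14 between the non-tumour tissues, so the opposite signs rest on 1 probe set.

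Cldn4 showed the same crossing, at 0.47 and 0.17 between the tumours and at -0.68 and -0.30 between the non-tumour tissues. The difference was 0.81 ± 0.23 (limma adjusted p = 0.141).

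Cldn4 also had opposite signs with ACKR2 loss: 0.55 in colon and 0.25 in small-intestinal tumours, against -0.60 in colon and -0.22 in small intestine without tumours. The difference of 0.82 ± 0.23 had an unadjusted limma p of 0.012 and an adjusted p of 0.571. The arrays of ACKR2-deficient mice also had the higher Actb ratios, while their Gapdh ratios overlapped with the others. The pools differed in sex-linked genes too, and the part of RNA quality or sex was not tested.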

How the results depend on the processing

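Of the 12 called claudin differences, 118 of 140 values under other settings kept the direction and the call, 22 were no longer past the threshold and 0 reversed. These values include Cldn1, called in 8 of 10 settings in colon tumours and 7 of 10 between non-tumour regions. The filter kept Cldn1 through non-tumour colon, so its kept calls and directions are no support. With arrays left out, 19 of 120 kept the call, 101 lost it and 0 reversed, and each such fit has 1 residual degree of freedom. Leaving out 1 array at a time gave 0 to 2 claudins called between non-tumour regions, 0 to 2 in the colon tumour effect, and 0 for the small-intestinal tumour effect, between tumours, and in the remaining comparisons. Without a filter on low genes 1 claudin was called between non-tumour regions and 0 in tumours. Calls were few over all 18193 genes in that fit too, with 155 higher and 98 lower between non-tumour regions. They were 36 and 51 in colon tumours, 14 and 4 in small-intestinal tumours, and 5 and 19 between tumours. The 120 values with arrays left out include the fits without both WT or both ACKR2-/-ApcMin/+ arrays. Those fits too leave 1 array in some kinds of tissue, so only their directions are to be read. With the mean over all probe sets 3 claudins were called in the colon tumour effect and 1 between tumours. Of 14063 genes, 1155 were higher and 1516 lower in colon tumours, and 589 and 875 between tumours. A floor at the 60th percentile left 1 claudin in the small-intestinal tumour effect, with 237 of 11120 genes higher and 95 lower. The cause was not tested. No fit with a replicate block was possible because each group has 1 array, and the model already compares arrays of the same ACKR2 status.

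Several differences that were not called changed sign. With arrays left out in turn, the colon minus small-intestine difference ranged from -0.057 to 0.42 for Cldn3 in tissue and from -0.62 to 0.10 for Cldn23 in tumours. The colon tumour effect ranged from -0.62 to 1.38 for Cldn15 and from -0.55 to 0.17 for Cldn23. The small-intestinal one ranged from -0.43 to 0.021 for Cldn7, -1.53 to 0.47 for Cldn15 and -0.62 to 0.11 for Cldn23. The difference of both tumour effects ranged from -0.39 to 0.058 for Cldn7, -0.086 to 1.91 for Cldn15 and -0.29 to 0.43 for Cldn23. The effect of ACKR2 loss in tumours ranged from -0.058 to 0.031 for Cldn3, -0.32 to 0.13 for Cldn7, -1.35 to 0.65 for Cldn15 and -0.40 to 0.32 for Cldn23. In non-tumour tissue it ranged from -0.17 to 0.64 for Cldn2, -0.45 to 0.033 for Cldn3 and -5.6e-05 to 0.18 for Cldn8. Median centring gave 0.11 for Cldn2, 0.25 for Cldn3, 0.17 for Cldn7 and 0.23 for Cldn23 with ACKR2 loss in tumours, 0.18 for Cldn3, 0.14 for Cldn15 and 0.067 for Cldn23 in non-tumour tissue, and 0.036 for Cldn7 in the difference of both tumour effects. Centring on epithelial genes gave 0.047 for Cldn3 and 0.024 for Cldn23 with ACKR2 loss in tumours. With 1 ACKR2 effect for all arrays Cldn1 was 0.32, Cldn2 0.042 and Cldn4 -0.0056. The mean of probe sets gave -0.0098 for Cldn1 between tumours, and the 60th percentile floor gave -0.81 for Cldn8 in the difference of both tumour effects. Without both ACKR2-/-ApcMin/+ arrays Cldn23 was 0.10 between tumours and Cldn7 0.058 in the difference of both tumour effects. Without both WT arrays Cldn23 was 0.025 in the colon tumour effect.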

Other observations

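Cldn18 and Cldn6 are claudins of other organs, the first known from stomach and lung and the second from embryonic epithelia, and were singled out after their values were seen. Cldn18 had a signal of 92.7 in ACKR2-/-ApcMin/+ and 78.4 in ApcMin/+ colon tumours, against 6.96 in ACKR2-/- and 5.15 in WT colon. In the small intestine Cldn18 was 148 in ACKR2-/-ApcMin/+ and 80.5 in ApcMin/+ tumours, against 6.98 in ACKR2-/- and 4.87 in WT tissue. Cldn6 was 133 in ACKR2-/-ApcMin/+ and 93.0 in ApcMin/+ colon tumours, against 4.85 in ACKR2-/- and 30.1 in WT colon. In the small intestine Cldn6 was 95.0 in ACKR2-/-ApcMin/+ and 126 in ApcMin/+ tumours, against 29.7 in ACKR2-/- and 34.3 in WT tissue. Both genes were above the floor in 4 of 4 tumour arrays and below it in 4 of 4 others. Both passed the filter through the tumours alone. With the non-tumour values at the floor neither was called in colon tumours (limma adjusted p = 0.218 for Cldn18 and 0.0737 for Cldn6) or in small-intestinal tumours (0.12 and 0.173).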
